A study of Capra hircus with 10 samples.

Results

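The immediate early transcription factors are described here through 10 genes: FOS, FOSB and FOSL2, JUN, JUNB and JUND, EGR1 and EGR3, and ATF3 and IER2. They were taken by symbol from the protein-coding rows of the transcript table, and all 10 were found among its 20587 gene symbols, spread over 14 transcripts. Expression was measured by RNA sequencing of whole ovaries from Anhui white goats, 5 in the luteal phase, when a corpus luteum is present, and 5 in the follicular phase, when follicles grow towards ovulation. No treatment, genetic change or age is given for the animals, and the ovaries came from a slaughterhouse and were frozen after transport. The time from slaughter to freezing is not given for single ovaries, only as a limit of hours for transport, and its part in the levels of these quickly induced genes was not tested. Values are FPKM, in which the fragments assigned to a transcript are divided by its length and by the size of the library, and they were summed over the transcripts of a gene.

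Immediate early genes are switched on within minutes of a stimulus, without new protein synthesis, by kinase pathways that act on factors already present, such as SRF with its ELK partners and CREB1. Proteins of the FOS and JUN families pair through a leucine zipper to form AP-1, which binds DNA and alters transcription of later genes. The EGR proteins are zinc finger factors of the same early wave. ATF3 is a stress-induced factor of the ATF and CREB group that can pair with JUN proteins, and IER2 is a small nuclear protein of the same response. In the ovary these genes are known to respond to gonadotropins in granulosa cells and to prostaglandin F2 alpha in luteal cells.

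The labels of the ovaries were compared with marker genes. The summed FPKM of 6 corpus luteum markers, which include STAR, LHCGR and OXT, was 5774 to 7939 in luteal ovaries and 141 to 189 in follicular ovaries. PGR, the progesterone receptor, went the other way within that list, with 5.63 to 8.91 FPKM in luteal and 9.29 to 18.7 in follicular ovaries. The summed FPKM of 7 endothelial markers ran from 213 to 268 and from 108 to 131, that of 6 smooth muscle markers from 636 to 1160 and from 1353 to 1712, and that of 7 stromal markers from 3366 to 5640 and from 2611 to 3716, although the stromal marker NR2F2 was higher in follicular ovaries (-0.61, limma adjusted p = 0.0029). Of 7 granulosa cell markers, FSHR, AMH and FOXL2 were called higher in follicular ovaries and 0 in luteal ovaries, with a median log2 fold change of -1.04. All 6 smooth muscle markers (median -0.73) and 4 of 6 oocyte markers (median -1.08) were also called higher in follicular ovaries, and 0 in luteal ovaries. Over all genes tested, 27.8% were called higher in follicular ovaries. The direction of these lists is also that of FOS, FOSB, JUN and JUND. Whole ovaries were sequenced, so fewer cells of a type and less RNA per cell cannot be told apart. The part of these cell types in the differences below were not tested. Absolute read counts were not used here. From the steps between the lowest FPKM values, the depth of the 10 libraries ran from 0.668 to 1.02 times that of follicular ovary 1: luteal libraries lay at 0.668 to 0.768 and follicular libraries at 0.677 to 1.02.

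FPKM allows levels to be compared between genes, because length is divided out. In the luteal phase the order of the mean levels was FOS (137 ± 18.4 FPKM, SD, n = 5), JUNB (123 ± 10.1), FOSL2 (84.4 ± 7.76), JUN (78.4 ± 11.9), JUND (32.8 ± 3.66), EGR1 (17.9 ± 4.89), IER2 (14.1 ± 1.43), ATF3 (7.74 ± 3.54), FOSB (2.47 ± 0.969) and EGR3 (0.344 ± 0.119). The neighbours FOS and JUNB overlapped, with FOS higher in 4 of 5 ovaries, and so did FOSL2 and JUN, with FOSL2 higher in 3 of 5. The steps from JUNB to FOSL2, from JUN to JUND, from JUND to EGR1 and from FOSB to EGR3 were larger than the spread between ovaries, since the ranges did not overlap. In the follicular phase the order was FOS (290.5 ± 202 FPKM), JUN (170 ± 92.1), JUNB (132 ± 68.6), FOSL2 (52.4 ± 10.1), JUND (45.4 ± 10.6), EGR1 (26.2 ± 16.4), ATF3 (18.7 ± 19.0), IER2 (17.1 ± 6.42), FOSB (12.9 ± 13.4) and EGR3 (0.263 ± 0.205). Of the steps between neighbours there, only that from FOSB to EGR3 had ranges that did not overlap. ATF3 was above IER2 in only 2 of 5 follicular ovaries, and this step rested on follicular ovary 5. Without that ovary the follicular mean was 10.5 FPKM for ATF3, 14.3 for IER2 and 6.95 for FOSB. FOS lay above 98.4% of the 15359 genes tested by its mean level, JUNB above 97.2% and JUN above 97.1%, while EGR3 lay above 7.66%. Thus 9 of the 10 genes had a mean FPKM above 1 in both phases, and EGR3 was below 1 FPKM in each ovary.

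**Figure D1:**
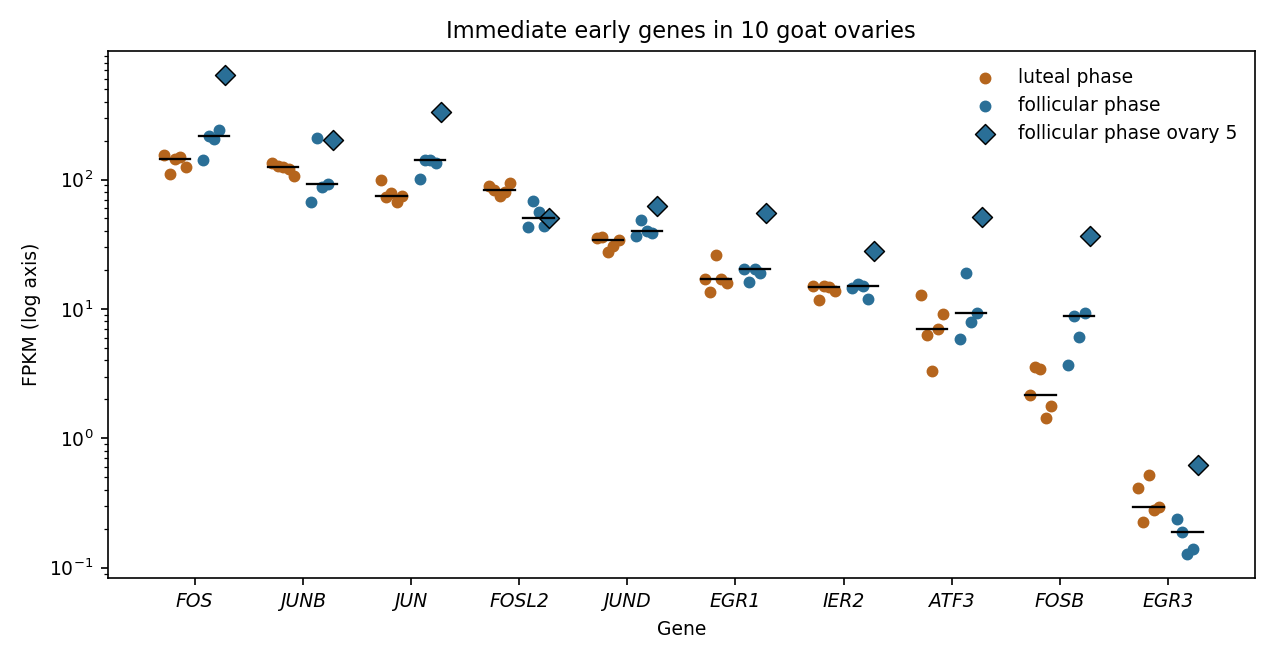
FPKM on a log axis of each gene in each ovary, ordered by mean level, with luteal ovaries in brown, follicular ovaries in blue, follicular ovary 5 as a diamond and the median of each phase as a bar. The diamond is the highest of the 10 ovaries for 8 of the 10 genes, while for FOSL2 all luteal ovaries lie above all follicular ovaries.

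To compare the phases, limma was applied to log2(FPKM + 0.1) of 15359 genes, with p adjusted over all of them by Benjamini-Hochberg and differences taken as luteal minus follicular. All 10 genes passed the filter on low values. Of the 10, 5 had an adjusted p under 0.05: FOSL2 was higher in the luteal phase, and FOS, FOSB, JUN and JUND were higher in the follicular phase. Among all genes tested, 43.7% were called, 15.9% as higher in the luteal phase and 27.8% as higher in the follicular phase, so the share of the 10 genes called was near that of all genes. With the medians of the ovaries set equal, or on the TPM scale, 1 luteal and 2 follicular calls were left, and the luteal share of all calls went from 36.3% to 48.8% and 52.5%. The median log2 fold change was -0.43 over the 10 genes and -0.14 over all genes tested. The phases did not overlap for 4 of the 10 genes, against 28.4% of all genes. Without follicular ovary 5, which stood apart for several of these genes, 6 of the 10 were called, of which 4 were higher in follicular ovaries, where 39.7% and 24.1% of all genes were.

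FOSL2, also called FRA2, encodes a FOS family protein that lacks the strong activation domain of FOS. Its FPKM in luteal ovaries 1 to 5 was 89.5, 83.3, 75.0, 79.6 and 94.5. In follicular ovaries 1 to 5 it was 43.3, 67.7, 56.3, 43.8 and 50.8. Each luteal ovary was higher than each follicular ovary, a pattern that 11.2% of all genes showed in this direction. The log2 fold change was 0.70 (standard error 0.12, limma adjusted p = 0.000982), or 1.63-fold. The call was kept in all 20 alternatives tried.

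FOS encodes the AP-1 subunit that gives the family its name. Its FPKM was 155, 111, 145, 150.3 and 125 in luteal ovaries 1 to 5 and 142, 217, 206, 240.3 and 646 in follicular ovaries 1 to 5. Follicular ovary 1 lay within the luteal range, and ovary 5 was 3.05 times the median of the other 4 follicular ovaries. Luteal minus follicular, FOS differed by -0.88 on the log2 scale (standard error 0.32, limma adjusted p = 0.0428), a 1.84-fold higher level in the follicular phase. This call stood close to the threshold. It was lost in 14 of 20 alternatives, where the adjusted p reached at most 0.0866, without luteal phase replicate 2. Without follicular ovary 5 the change was smaller, at -0.54, but the spread was smaller too (standard error 0.16, adjusted p = 0.0199).

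FOSB, which encodes a FOS family protein induced with FOS, had the largest fold change of the 10 genes. It stood at 2.15, 3.57, 3.43, 1.44 and 1.78 FPKM in luteal ovaries 1 to 5 and at 3.69, 8.87, 6.02, 9.23 and 36.6 in follicular ovaries 1 to 5. The highest luteal and the lowest follicular value lay next to each other without overlap. A log2 fold change of -1.94 was found (standard error 0.51, limma adjusted p = 0.00984), and without follicular ovary 5 it was -1.45 (adjusted p = 0.00631). The table holds 2 FOSB transcripts. The first, XM_018062603.1, had 0.558 to 1.74 FPKM in luteal ovaries and 2.15 to 18.9 in follicular ovaries, without overlap. The second, XM_018062604.1, ran from a listed 0 to 3.01 and from 0.979 to 17.6, so its phases overlapped. When only this more abundant transcript was used, the change was -2.44 and the call was lost (adjusted p = 0.0707).

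JUN encodes the classic partner of FOS. Luteal ovaries 1 to 5 had 98.4, 73.1, 78.2, 67.1 and 75.1 FPKM, and follicular ovaries 1 to 5 had 102, 141, 142, 133 and 332. All follicular ovaries were above all luteal ovaries, as for 17.2% of all genes. On the log2 scale the difference was -0.997 (standard error 0.26, limma adjusted p = 0.00941) and it was -0.72 without follicular ovary 5 (standard error 0.13, adjusted p = 0.00196).

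JUND, the JUN family member known for steady expression in resting cells, differed least among the called genes. It was at 35.5, 36.3, 27.4, 30.8 and 33.9 FPKM in luteal ovaries 1 to 5 and at 36.8, 48.3, 40.1, 38.9 and 62.7 in follicular ovaries 1 to 5. The ranges met without overlapping, between 36.3 in the luteal and 36.8 in the follicular phase. JUND passed the threshold at a log2 difference of -0.45 (standard error 0.14, limma adjusted p = 0.0245). Its call was lost in 4 of 20 alternatives: after the median of every ovary was set equal (-0.36, adjusted p = 0.0609), on the TPM scale (-0.35, adjusted p = 0.0715), and without luteal phase replicate 3 or 4 (adjusted p = 0.0542 and 0.0554).

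JUNB, a JUN family protein that can also limit the activity of JUN, was not called. Its luteal values were close together, at 133, 127, 125, 121 and 107 FPKM, whereas follicular ovaries 1 to 5 had 67.4, 209, 87.0, 92.1 and 203. Follicular ovaries 2 and 5 lay above all luteal ovaries and ovaries 1, 3 and 4 below them. On the log2 scale JUNB differed by 0.05 (standard error 0.29, limma adjusted p = 0.896), and its sign turned in 4 of 20 alternatives, to between -0.15 and -0.04. The SD of its log2 values was 0.12 in luteal and 0.75 in follicular ovaries.

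ATF3 varied most of the 10 genes within each phase, with an SD of its log2 values of 0.71 in luteal and 1.25 in follicular ovaries. It was at 12.9, 6.32, 3.34, 7.01 and 9.15 FPKM in luteal ovaries 1 to 5 and at 5.82, 19.0, 7.86, 9.38 and 51.4 in follicular ovaries 1 to 5. The phases overlapped between 5.82 and 12.9 FPKM, and the log2 fold change of -0.91 had a standard error of 0.54 (limma adjusted p = 0.191). It was -0.42 without follicular ovary 5 (adjusted p = 0.414). Of its 2 transcripts, XM_018060747.1 carried nearly all of the signal, with 3.15 to 49.4 FPKM against 0.1002 to 2.03 for XM_018060748.1.

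EGR1, an inducible zinc finger factor known for its role in LH beta subunit expression in the pituitary, was at 17.2, 13.4, 26.3, 17.0 and 15.9 FPKM in luteal ovaries 1 to 5. In follicular ovaries 1 to 5 it was at 20.2, 16.3, 20.4, 18.9 and 55.4. Follicular ovary 5 was the highest, and the other 4 follicular ovaries lay within the luteal range. The log2 fold change was -0.42 with all ovaries (standard error 0.30, limma adjusted p = 0.275) and -0.11 without that ovary (standard error 0.17, adjusted p = 0.624). IER2 also had its highest value in follicular ovary 5, with 14.9, 11.7, 15.1, 14.9 and 13.8 FPKM in luteal ovaries and 14.4, 15.7, 15.05, 11.97 and 28.3 in follicular ovaries. Its log2 fold change was -0.22 (standard error 0.19, limma adjusted p = 0.377) and became -0.02 (standard error 0.11) without follicular ovary 5.

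EGR3, a relative of EGR1, was low everywhere. It stood at 0.410, 0.223, 0.518, 0.278 and 0.293 FPKM in luteal ovaries 1 to 5 and at 0.239, 0.188, 0.128, 0.140 and 0.621 in follicular ovaries 1 to 5. Follicular ovary 5 was the highest of all, and follicular ovaries 2 to 4 were the lowest. The log2 fold change was 0.40 (standard error 0.32, limma adjusted p = 0.337), and without follicular ovary 5 it was 0.68 (adjusted p = 0.0444), which adds EGR3 to the calls. The most abundant of its 3 transcripts, XM_018052321.1, held the larger part of the level in 9 of the 10 ovaries. In luteal ovary 5 the larger part was assigned to XM_018052319.1, with 0.270 against 0.0227 FPKM.

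**Figure D2:**
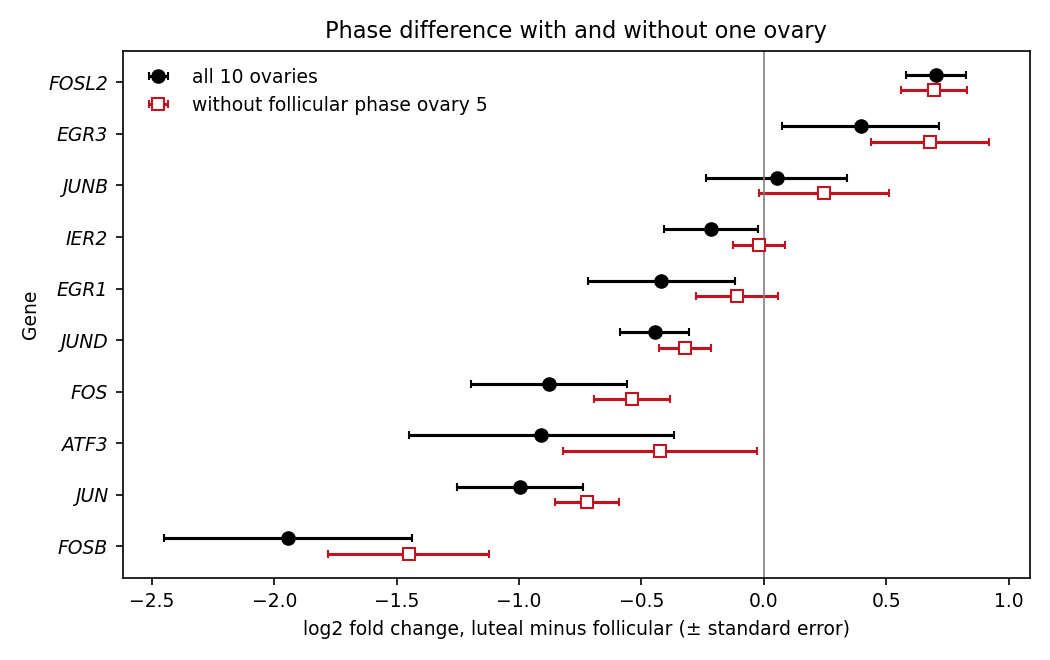
Log2 fold change of each gene, luteal minus follicular, with its standard error from limma, for all 10 ovaries (black circles) and without follicular ovary 5 (red squares). Leaving out that ovary moves FOS from -0.88 to -0.54 and EGR1 from -0.42 to -0.11, while FOSL2 stays at 0.70.

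The shares of the members within the FOS and JUN families are given next. They were chosen after the values above were seen, and they carry no test. FOSL2 made up 33.6% to 42.7% of the summed FPKM of FOS, FOSB and FOSL2 in luteal ovaries and 6.92% to 23.0% in follicular ovaries. FOS made up 56.2% to 65.0% and 74.0% to 88.1%, and FOSB 0.624% to 1.80% and 1.95% to 4.98%. For each of the 3 genes the shares of the phases did not overlap. In the JUN family, JUNB held 49.4% to 55.3% of the sum in luteal ovaries and 32.3% to 52.6% in follicular ovaries. JUN made up 30.6% to 36.8% and 35.3% to 55.6%. Follicular ovary 2, with 52.6% JUNB and 35.3% JUN, lay within the luteal range, and the other follicular ovaries lay outside it. JUND held 14.1 ± 1.56% in luteal and 14.02 ± 2.84% in follicular ovaries (SD, n = 5). Shares of RNA do not give the composition of AP-1 protein.

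**Figure D3:**
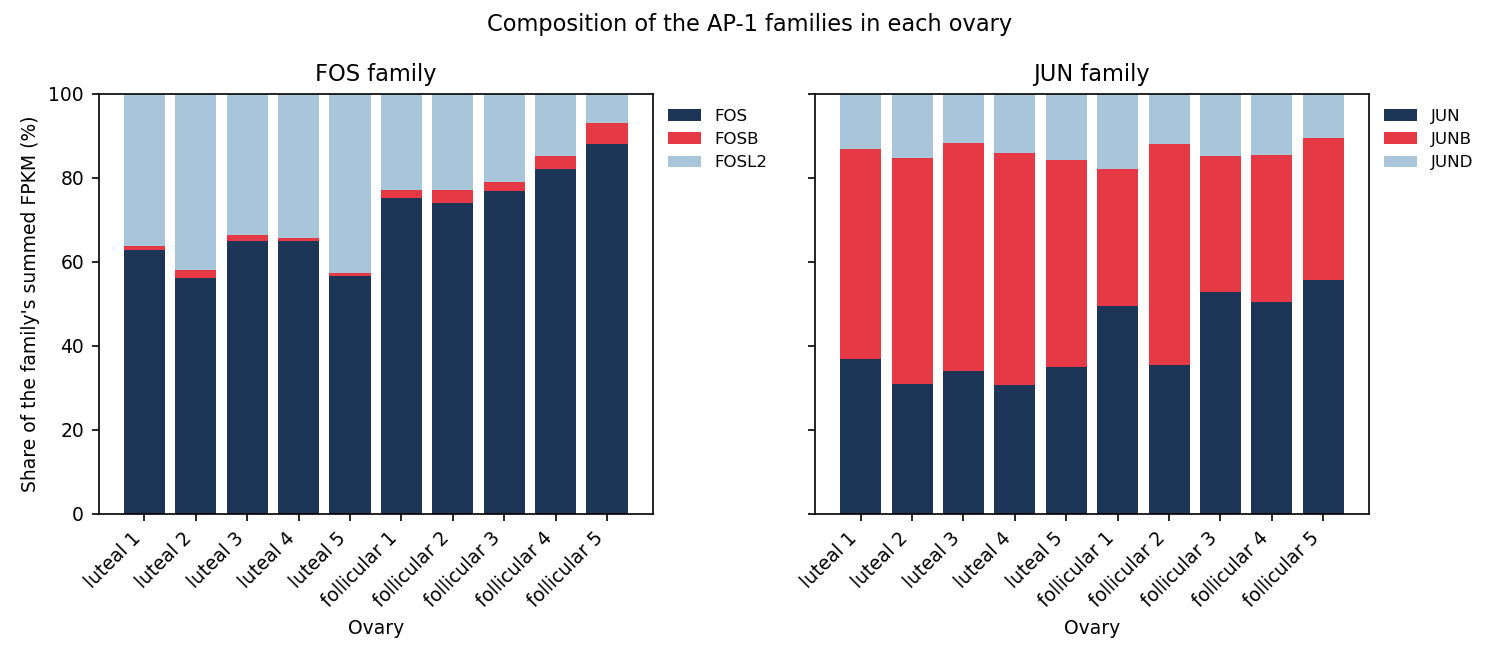
Share of each gene in the summed FPKM of its family, in percent, in each ovary, for the FOS family on the left and the JUN family on the right. The FOSL2 part is at least 33.6% in each luteal ovary and at most 23.0% in each follicular ovary.

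Single ovaries also differed from others of their phase in several of the genes together. Follicular ovary 5 was the highest of the 10 ovaries for 8 of the 10 genes, all but FOSL2 and JUNB, where it ranked 8th and 2nd. Over all genes tested it was the highest for 18.6%. Its value was more than 2 times the median of the other 4 follicular ovaries for 7 of the 10 genes, against 4.78% of all genes, and more than 1.5 times for 9 of the 10, against 11.3%. The ratio was 5.96 for ATF3, 4.91 for FOSB, 3.79 for EGR3, 3.05 for FOS, 2.84 for EGR1, 2.43 for JUN, 2.27 for JUNB, 1.92 for IER2, 1.59 for JUND and 1.02 for FOSL2. The median ratio was 2.63 over the 10 genes and 1.04 over all genes. This library also stood somewhat apart over all genes, since 1.07% to 2.61% of genes exceeded 2 times the median in the other follicular ovaries, and 3.93% to 15.1% of genes were highest of the 10 in each of them. By the gap to the next ovary (Dixon's test), it stood above the other follicular ovaries for 7 of the 10 genes on the FPKM scale, against 1.66% of all genes. The count depended on the scale: on log2(FPKM + 0.1) it was 2 of the 10, JUN and EGR1, against 0.801% of all genes. The mean correlation of this library with the other follicular ovaries across genes, on the log2 scale, was 0.977, where the other 4 had 0.973 to 0.982. At the other end, follicular ovary 1 was the lowest of its phase for 7 of the 10 genes. The share of all genes lowest in that ovary was not calculated, so this count has no background beside it. Follicular ovary 2 exceeded 2 times the median of the other follicular ovaries for JUNB and ATF3, and it was the highest of its phase for JUNB and FOSL2. No luteal ovary exceeded 2 times the median of the other luteal ovaries for any of the 10 genes.

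**Figure D4:**
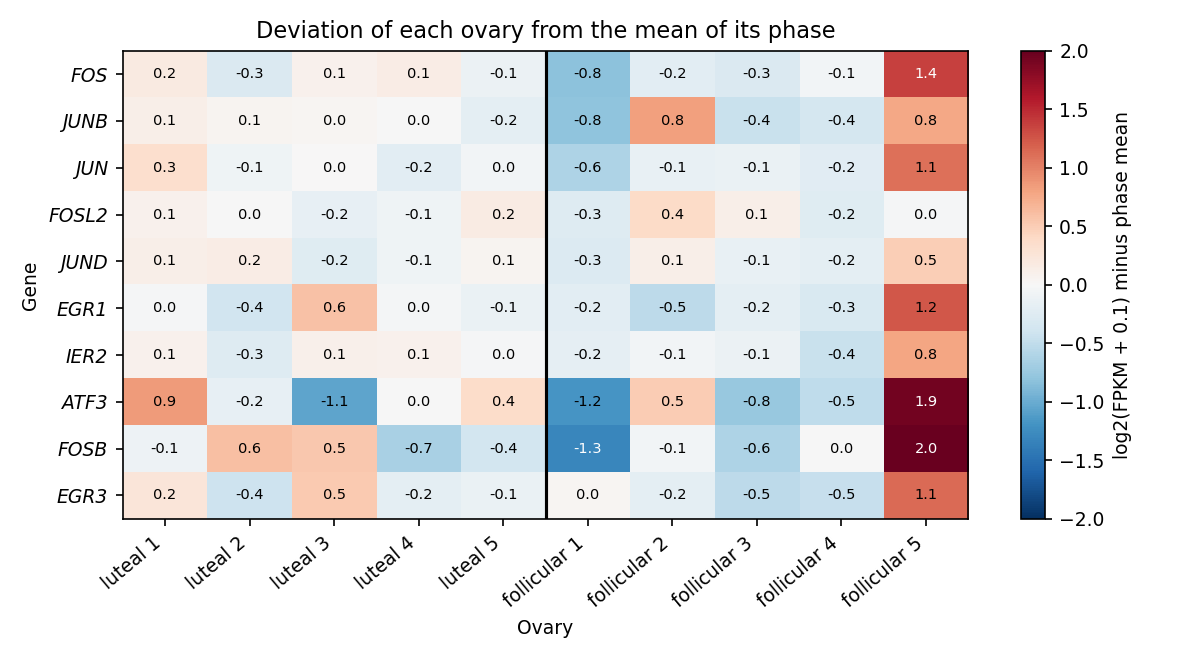
Log2(FPKM + 0.1) of each gene in each ovary minus the mean of that ovary's phase, from blue (below) to red (above), with the value printed in each cell. Follicular ovary 5 is red for 9 genes, up to 1.97 for FOSB, and near 0 for FOSL2. Its high values raise the phase mean, and follicular ovaries 1, 3 and 4 lie below that mean for most genes.

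Other measures moved in follicular ovary 5. The summed FPKM of 7 macrophage and leukocyte markers was 70.5 there, against 31.6 to 45.03 in the other follicular ovaries and 52.9 to 61.8 in luteal ovaries. Of the 7, 4 were highest of all 10 ovaries there, where 18.6% of all genes were. The summed FPKM of 6 oocyte markers was 45.1, against 16.0 to 32.0 in the other follicular ovaries and 8.28 to 19.1 in luteal ovaries. Of these 6, 4 were highest in that ovary, led by ZP3 (15.6) and FIGLA (12.97), whereas ZP2 and BMP15 lay within the range of the other follicular ovaries. The corresponding sums for 7 granulosa cell markers (597 against 252 to 1192) and for the corpus luteum, endothelial and smooth muscle lists lay within the range of the other 4. Blood could be read only from 4 low markers, which summed to 0.140 to 0.758 FPKM over the 10 ovaries. Of 17 heat shock and hypoxia genes, 0 exceeded 2 times the median of the other follicular ovaries in this one, and their median ratio was 0.942. This ovary was the lowest of its phase for 7 of the 17, against 16.2% of all genes, among them HSPH1, HSPA8, BAG3 and SLC2A1. It was the highest of its phase for 5 of the 17, near the 28.3% of all genes. The relative depth of this library was 0.677, close to the 0.668 to 0.768 of the luteal libraries. The part of leukocyte and oocyte content in the high values of this ovary was not tested.

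To describe how the genes vary together, the mean of each phase was subtracted from the log2 values, and Pearson's r was taken over the 10 ovaries for each of the 45 pairs of genes. A two-sided exact permutation p came from all exchanges of ovaries within their phase and was adjusted over the 45 pairs by Benjamini-Hochberg. The median r was 0.716, with 43 positive pairs and a range from -0.26 to 0.942. No pair had an adjusted p under 0.05, and 12 pairs had an unadjusted exact p under 0.05. For Spearman's rho the median was 0.515, with 0 pairs after adjustment and 9 before it. Without follicular ovary 5 the median r was 0.212, with 33 positive pairs. The pooled correlations thus rested mostly on that ovary. Without the 2 ovaries farthest from the median of the first gene of each pair, the median r was 0.269, and follicular ovary 5 was among those left out in 33 of the 45 pairs.

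FOS and JUN had an r of 0.942 (exact permutation p = 0.0163, adjusted 0.122) and a rho of 0.600 (exact permutation p = 0.0829, adjusted 0.249). Without the 2 ovaries farthest from the median of FOS, follicular ovaries 1 and 5, r was 0.463. JUND and ATF3 had an r of 0.941 (exact permutation p = 0.0025, adjusted 0.112) and a rho of 0.867 (exact permutation p = 0.00465, adjusted 0.190), and r was still 0.838 without the 2 farthest ovaries. JUNB and JUND had an r of 0.780 (exact permutation p = 0.0322, adjusted 0.133), a rho of 0.770 (exact permutation p = 0.0230, adjusted 0.190) and an r of 0.824 without the 2 farthest, here follicular ovaries 1 and 2. That value still holds follicular ovary 5, and r was 0.651 without that ovary. EGR1 and EGR3 had an r of 0.915 (exact permutation p = 0.00896, adjusted 0.122) and a rho of 0.685 (exact permutation p = 0.0362, adjusted 0.195), with 0.457 without the 2 farthest. EGR1 and JUND went apart once follicular ovary 5 was left out, from an r of 0.436 (exact permutation p = 0.298) and a rho of 0.103 (exact permutation p = 0.799) to an r of -0.83, and without the 2 farthest ovaries r was -0.57. With all ovaries FOSL2 was the gene least like the rest, with a median r of 0.134 over its 9 pairs, against 0.828 for JUN and 0.791 for FOS. This order rested on follicular ovary 5: without it the median r was 0.400 for FOSL2, 0.471 for JUN, 0.212 for FOS and -0.01 for EGR1.

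Each gene was also placed among all 15350 genes that could be ranked (the 15359 without the other 9) by its correlation with the mean standardized, phase-centred profile of the other 9. JUN ranked 3rd (r = 0.947), FOS 10th (0.902), IER2 20th (0.872), ATF3 38th (0.853), JUND 43rd (0.843), FOSB 87th (0.807), JUNB 123rd (0.782), EGR3 194th (0.727) and EGR1 256th (0.704). FOSL2 ranked 5537th (0.190). Without follicular ovary 5 the ranks were 160 for JUNB, 246 for JUN, 645 for FOSL2, 1173 for ATF3, 1357 for FOS, 2356 for JUND, 2601 for IER2, 3527 for FOSB, 5537 for EGR3 and 8758 for EGR1. These ranks describe 10 ovaries and carry no test.

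Among the 10 other genes with the highest correlation to the mean profile of all 10 were EPHA5 (0.955), KLF4 (0.951), PTGS2 (0.929), KDM8 (0.928), ACRBP (0.918), NR4A1 (0.916), MRLN (0.909), P2RY1 (0.904) and ZFP36 (0.904). No gene beyond these 10, of the 15349 compared, reached 0.9. KLF4, PTGS2, NR4A1 and ZFP36 are early response genes themselves. Prostaglandin synthase PTGS2 had 13.6 FPKM in follicular ovary 5 and 1.05 to 4.47 in the other follicular ovaries, and its luteal range was 1.13 to 3.22. KLF4, a zinc finger factor, had 18.6 FPKM in that ovary and 12.9 in follicular ovary 2, against 5.89 to 7.53 in follicular ovaries 1, 3 and 4 and 5.62 to 7.30 in the luteal phase. The nuclear receptor NR4A1 had 69.6 FPKM there and 24.8 to 33.3 in the other 4, and ZFP36, whose protein promotes decay of short-lived mRNAs, had 21.1 and 6.70 to 7.86. EPHA5, ACRBP and MRLN stayed below 1 FPKM in each ovary. Without follicular ovary 5 the correlation was 0.918 for PTGS2 and 0.902 for KLF4, and 0.672 for NR4A1 and 0.632 for ZFP36. For the other genes named it was 0.877 for EPHA5, 0.848 for KDM8, 0.733 for MRLN, 0.575 for ACRBP and 0.537 for P2RY1.

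Beyond the 10 genes, a list of 50 other early response genes was examined, all of which passed the filter. Of these, 9 were called higher in luteal and 12 in follicular ovaries at a limma adjusted p under 0.05, 29 were not called, and the median log2 fold change was -0.17. On the TPM scale the split was 10 luteal to 6 follicular calls. The called share, 21 of 50, was near the 43.7% of all genes. On the luteal side the smallest adjusted p belonged to SGK1, a kinase induced by hormones and serum, with 48.1 ± 13.1 FPKM in luteal and 13.1 ± 1.96 in follicular ovaries (log2 fold change 1.84, limma adjusted p = 2.02e-05), and next to SOCS3, an inhibitor of cytokine signalling, with 51.9 ± 11.5 and 15.3 ± 8.24 (1.89, adjusted p = 0.000766). ID1, IER3, DUSP6, which encodes a kinase phosphatase, and CEBPB, which encodes a factor with a known role in luteinization, were higher in the luteal phase by 0.51, 0.82, 0.40 and 0.51 on the log2 scale.

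By adjusted p, the follicular side of the list began with zinc finger factor KLF6 (41.7 ± 9.40 FPKM luteal, 74.0 ± 11.1 follicular, log2 fold change -0.84, limma adjusted p = 0.00133) and by MYC (12.8 ± 2.76 and 21.9 ± 3.20, -0.79, adjusted p = 0.00133). BTG1, an antiproliferative gene, CITED2, GADD45G and KLF2 followed, with -0.58, -1.04, -1.01 and -0.55. In follicular ovary 5, 12 of the 50 exceeded 2 times the median of the other follicular ovaries, against 4.78% of all genes. There, 21 of the 50 were highest of all 10 ovaries, against 18.6% of all genes. The median ratio over the list was 1.43. MYC was at 0.990 times and GADD45G at 0.962 times that median, and CEBPD, which encodes another early factor, was at 0.722 times. Without this ovary 16 of the 50 were called, 8 in each direction, where 39.7% of all genes were called and 24.1% were higher in follicular ovaries.

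**Figure D5:**
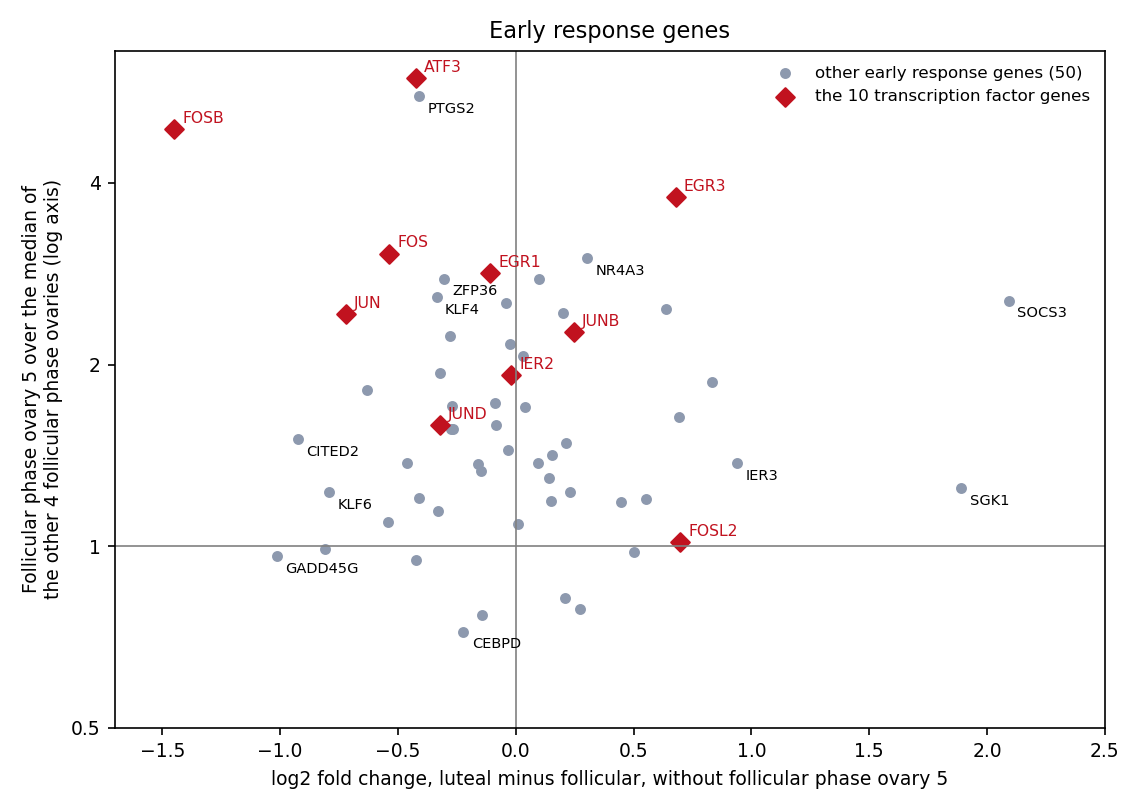
For the 10 transcription factor genes (red diamonds) and 50 other early response genes (grey points), the log2 fold change, luteal minus follicular, without follicular ovary 5 is on the horizontal axis, and the ratio of that ovary to the median of the other 4 follicular ovaries is on the vertical log axis. ATF3 and PTGS2 stand highest, at 5.96 and 5.57, and SGK1 and SOCS3 lie farthest to the luteal side. Both axes use the same 4 follicular ovaries.

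Among 20 other AP-1 partners and related leucine zipper factors, 4 were called higher in luteal ovaries, 4 in follicular ovaries and 12 were not called, so that 8 of 20 stood near the 43.7% called over all genes. BATF3, a factor known from dendritic cells, had 4.96 ± 1.82 FPKM in luteal and 1.26 ± 0.403 in follicular ovaries (log2 fold change 1.88, limma adjusted p = 0.000371). CREM, which mediates cAMP responses, had 47.4 ± 14.7 and 13.4 ± 8.54 (1.92, adjusted p = 0.00107) although its phases overlapped, and BATF, a relative of BATF3, changed by 1.00. ATF1, CREB1 and ATF2, constitutive factors of the CREB and ATF group, were higher in the follicular phase by log2 fold changes of -1.02, -0.46 and -0.20. The call of ATF2 was lost with equal medians (-0.11, limma adjusted p = 0.186) and on the TPM scale (-0.10, adjusted p = 0.302), and that of CREB1 with the most abundant transcript (-0.49, adjusted p = 0.431). The remaining calls were the FOS relative FOSL1, low at 0.269 ± 0.0654 FPKM in luteal and 0.0969 ± 0.0897 in follicular ovaries (limma adjusted p = 0.0214), and JDP2, a repressor of AP-1, at 14.8 ± 2.07 and 18.4 ± 1.67 (adjusted p = 0.0245).

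Of 20 genes for SRF, its cofactors and upstream kinases, 4 were called higher in luteal ovaries, 2 in follicular ovaries and 14 were not called, where 43.7% of all genes were called, with a median log2 fold change of 0.01. RPS6KA3, the RSK2 kinase, had 36.6 ± 2.42 FPKM in luteal and 16.9 ± 1.16 in follicular ovaries (log2 fold change 1.11, limma adjusted p = 1.12e-06). MAP2K1, a kinase of the growth factor pathway, and MKL2, a cofactor of SRF, were higher in the luteal phase by 0.41 each. The change of MKL2 turned to -1.03 without a call (adjusted p = 0.383) when only its most abundant transcript was used. The stress-pathway kinases RPS6KA5 (MSK1) and MAPK14 (p38) were higher in the follicular phase, by -0.54 and -0.28. MAPK14 lost its call on the TPM scale (-0.18, limma adjusted p = 0.0857) and with the most abundant transcript (-0.21, adjusted p = 0.139). SRF itself was at 9.74 ± 1.57 and 11.8 ± 1.45 FPKM (limma adjusted p = 0.0795). In the EGR group, 4 of 5 genes passed the filter. The co-repressor NAB1 was higher in the luteal phase (0.53, limma adjusted p = 0.000502), WT1, a zinc finger factor with a DNA site like that of EGR1, was higher in the follicular phase (-0.53, adjusted p = 0.0169), and EGR2 and NAB2 were not called. EGR2 was called higher in luteal ovaries once follicular ovary 5 was left out (0.84, limma adjusted p = 0.0335, from 0.49 with all ovaries). The call of NAB1 was lost with the most abundant transcript (0.11, limma adjusted p = 0.81), and that of WT1 on the TPM scale (-0.44, adjusted p = 0.0577).

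A list of 16 genes that textbooks name as targets of AP-1 or EGR proteins had 14 genes tested, with 7 called higher in luteal and 3 in follicular ovaries, against 15.9% and 27.8% of all genes, with a median log2 fold change of 0.62. TIMP1, an inhibitor of matrix proteases, had 6061 ± 560 FPKM in luteal and 255 ± 71.8 in follicular ovaries (log2 fold change 4.61, limma adjusted p = 1.49e-08). SPP1, osteopontin, changed by 4.498 (adjusted p = 2.74e-07) and the protease PLAU by 1.56 (adjusted p = 2.36e-05). The protease MMP9 was higher in the follicular phase (-2.28, adjusted p = 0.000329), as were ICAM1 (-0.36, adjusted p = 0.0399) and HMOX1 (-0.62, adjusted p = 0.0488). The calls for ICAM1 and HMOX1 were lost in 13 and 15 of 20 alternatives. Of 17 heat shock and hypoxia genes tested, 1 was called higher in luteal ovaries, PDK1 (0.47), and 6 in follicular ovaries, among them HSPB1 (-0.70), DNAJB1 (-0.54) and HSP90AA1 (-0.38). Over all genes 15.9% and 27.8% were called in these directions. HSP90AA1 lost its call with equal medians (-0.30, limma adjusted p = 0.0732).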

How the data were processed

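Whole ovaries, 5 per phase, gave 1 library each, made by a directional kit after removal of ribosomal RNA and read from both ends. The authors mapped the reads with HISAT2 and assembled them with StringTie, and they deposited an FPKM per transcript and ovary, calculated with Cuffdiff. The genome build is not given in the sources used here, so no coordinates are printed. FPKM of 43766 protein-coding transcripts were summed by symbol. A gene was tested if it reached 0.1 FPKM in 5 or more ovaries. limma 3.58.1 (R 4.3.3, eBayes with trend, two-sided) was applied to log2(FPKM + 0.1), with no scaling and no block, and calls have an adjusted p under 0.05. Code for limma and the permutations was tested on simulated data. The labels do not tie ovaries to separate animals, so p-values measure the spread between these ovaries only. Alternatives changed the pseudocount, filter, scaling, variance trend, transcript choice, block and single ovaries.

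Relative depth is an estimate, the most frequent ratio between libraries of FPKM under 0.1 in single-transcript genes, searched only near equal depth and resting on 23 to 42 genes per library. It has no absolute scale, so no counting interval is given.

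Members and lists were chosen with earlier results of these data known. Other genes were named by rule: the 3 with the smallest adjusted p among the calls of each list and direction (6 for other early response genes), and the 10 closest to the members' profile, of which 1 is not reported here. FOSL1, JDP2, SRF, EGR2, NAB2, CEBPD, HSPH1, HSPA8, BAG3, SLC2A1 and the single markers were added after their values were seen. MRTFA, MRTFB, CCN1 and CCN2 were matched by older symbols, and genes without a match were not analysed here. Other steps used scipy 1.17.1, pandas 2.3.3 and numpy 2.4.6 under Python 3.11.15, and figures matplotlib 3.10.9.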

Additional observations from a re-analysis of the deposited data

Results flagged for a closer look

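Each phase of each of the 10 genes was checked for an ovary that stands apart, by the gap to the next ovary relative to the range of the phase, in FPKM (Dixon's test, critical value 0.71 for 5 ovaries). Of 20 such groups, 7 were marked, where chance marks about 1 in 20 if values are normally distributed. All 7 were follicular phase ovary 5 lying above the other follicular phase ovaries. Its FPKM was 646.4 for FOS, 36.57 for FOSB, 332 for JUN, 55.44 for EGR1, 0.6207 for EGR3, 51.38 for ATF3 and 28.28 for IER2. The gap was largest for EGR1, at 0.895 of the range, and smallest for ATF3, at 0.711. The count depended on the scale, which was tried after the data were seen: on log2(FPKM + 0.1) 2 of the 20 groups were marked, JUN (0.716) and EGR1 (0.816), while the gap was 0.654 for FOS, 0.603 for FOSB, 0.654 for EGR3, 0.458 for ATF3 and 0.687 for IER2. These 7 are measurements of 1 ovary and not 7 independent events. Over all genes tested, 1.66% had follicular phase ovary 5 on top with a gap over the critical value.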

How the results depend on the processing

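The number of the 10 genes called was 5. It was 3 after the medians of all ovaries were set equal, 3 on the TPM scale and 3 with the most abundant transcript per gene, and it ran from 3 to 6 when single ovaries were left out (3 without luteal phase replicate 3 or 4). The first 2 settings removed the calls of FOS and JUND, which left 1 luteal and 2 follicular calls in place of 1 and 4. FOSL2 and JUN were called in every alternative tried, and FOSB in all but the most abundant transcript. For JUNB the sign turned to -0.06 after quantile normalization, and to -0.15, -0.06 and -0.04 without follicular phase replicate 1, 3 and 4. Over single ovaries left out it ran from -0.15 to 0.26. For EGR3 it turned to -0.04 and for MKL2 to -1.03 with the most abundant transcript.

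For the 50 other early response genes the 21 calls ran from 13 (without luteal phase replicate 5) to 21 when ovaries were left out. The luteal share of these calls was 42.9%, but 58.8% with equal medians, 62.5% on the TPM scale and 8 of 16 calls were luteal without follicular phase replicate 5. Over all genes the luteal share was 36.3%, and 48.8% and 52.5% with equal medians and on the TPM scale. Of 35 genes named from the lists, 26 kept call and direction in all alternatives. The median r of 0.716 became 0.515 with Spearman's rho and ran from 0.212 (without follicular phase replicate 5) to 0.794 when ovaries were left out. The cause of these changes was not tested.

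The labels do not state whether ovaries with equal replicate numbers are paired, and the values below do not settle it. The deviations of same-numbered ovaries correlated at 0.0258 to 0.199, with 2 of 5 pairs over 0.1, and 2 of 5 luteal and 3 of 5 follicular phase ovaries correlated best with their own number. A fit with the replicate number as a block called 4 of the 10 genes and 19 of the 50, and FOS lost its call (adjusted p = 0.0533). Depth is known only relative to other libraries, so for EGR3 and other genes under 1 FPKM counting error could not be separated from differences between ovaries.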
